A study of Mus musculus with 6 samples.

Results

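Collagen chain genes were examined in the outflow tract of embryonic mouse hearts. This vessel at the arterial pole later becomes the aorta and the pulmonary trunk. The members are all probe sets whose platform annotation names a single gene with a symbol of the form Col, number, a, number. They are 82 of the 45101 probe sets of the array and name 42 of the 18193 genes that it names singly. The groups are superior and inferior outflow tract tissue cut from CD1 mouse hearts at embryonic day 10.5, with no treatment and no altered allele named in the labels. Each group held 3 pools, numbered 1, 6 and 7 in both regions, and each pool was 1 Affymetrix Mouse Genome 430 2.0 array. A pool combined tissue of 6 littermates according to the sample labels, or 7 dissected pieces according to the series text, and nothing says that different pools came from different litters. The p-values therefore rest on how far the region difference varied from pool to pool among these 3. For each probe set that variation was combined with a trend estimated over all tested probe sets.

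Collagens are secreted matrix proteins whose chains wind around each other in a triple helix built on a glycine at regular steps. Fibrillar collagens assemble into the banded fibrils that carry tension. Type IV collagens form the sheet-like network of basement membranes, the thin layer under endothelium and epicardium and around muscle cells. FACIT collagens (fibril-associated collagens with interrupted triple helices) sit on the surface of fibrils and tie them to other matrix. In the outflow tract at this stage, matrix-rich cushions lie between the endocardium and the muscle wall, and the valves and the septum between the great arteries form from them.

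Values are MAS5 signals, a brightness in arbitrary units relative to the rest of an array, so 2 probe sets cannot be ranked against each other and only the same probe set is compared between arrays. Differences are superior minus inferior on the scale of log2(signal + 3.2), which understates differences of dim probe sets, and are the mean of the 3 differences within pools. Each comes with its standard error (SE) from limma, fitted over all probe sets with the pool number as a block (the paired fit), and its p-value adjusted by Benjamini-Hochberg over the 22518 probe sets whose mean lay above the median probe set. Of the 82 collagen probe sets, 53 were tested, and they cover 30 of the 42 genes. Each gene is described by its brightest tested probe set.

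No collagen probe set passed the adjusted p threshold of 0.05. In the paired fit 0 of 53 collagen probe sets were called, where 0.160% of all tested probe sets were, and the smallest adjusted p was 0.0707, for Col12a1. Without the pool number in the fit, 0 were called too, as were 0% of all tested probe sets. At an unadjusted p threshold of 0.05 the paired limma fit passed 11 of the 53, where 11.0% of all tested probe sets passed, and the fit without pools passed 3, against 3.52%. Of the 30 genes, 14 had a positive and 16 a negative difference, with a median of -0.01 beside -0.02 over all probe sets tested, of which 44.9% were positive and 55.1% negative. The classes did not share a sign. All 7 tested FACIT genes had negative differences (median -0.40), all 4 tested type IV genes had positive ones (median 0.30), and the 8 fibrillar genes were divided into 3 positive and 5 negative (median -0.15). Of the FACIT genes, Col9a1 (-0.0003) and Col16a1 (-0.01) were level and turned positive when the arrays were scaled by their 75th percentile. The direction was the same in all 3 pools for 18 of the 30 genes, 9 higher and 9 lower in superior tissue. Over all tested probe sets 34.0% kept 1 direction in all 3 pools, with 15.0% higher and 19.0% lower.

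**Figure D1:**
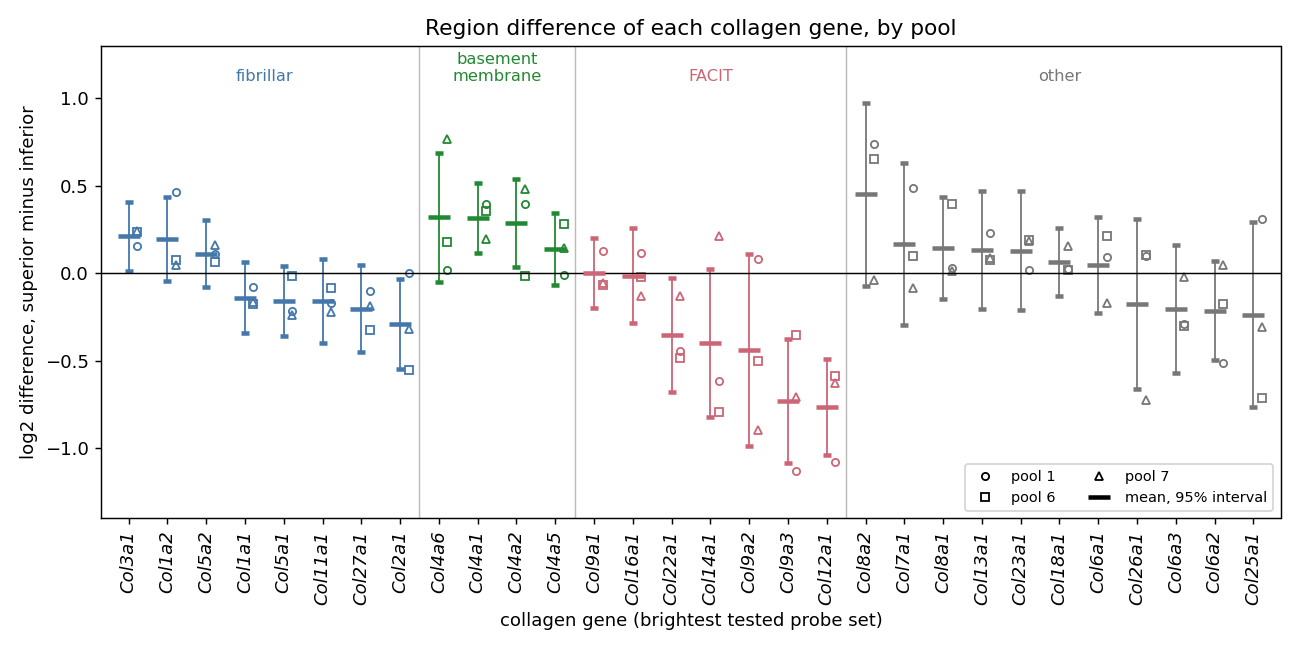
Difference between superior and inferior pools (vertical axis, log2 scale) for the 30 tested collagen genes, grouped by class. Each wide dash is the mean of 3 pools with its 95% interval from limma's paired fit, and open symbols are the single pools. The FACIT genes lie from -0.77 to about 0 and the type IV genes from 0.14 to 0.32.

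The arrays and the tissue were checked from the same values. The median signal of an array ranged from 13.9 to 17.6, and 58.4% to 63.1% of probe sets lay above 8.0, the highest signal among 27 Bacillus control probe sets, taken as background. The superior array of pool 6 stood apart in its hybridisation controls, with a median signal of 376.0 against 210.2 to 247.4 on the others. The values of that pool are therefore given for the tested genes other than Col11a1, Col16a1 and Col22a1. Heart muscle markers were bright in both regions, with 7 of 8 positive differences and a summed signal of 32031 to 39357 in superior and 29295 to 29620 in inferior arrays. Chamber myocardium markers had 7 of 7 tested genes with positive differences, with sums of 12832.6 to 15208.7 against 10223.7 to 11915.6 and with Gja5 not above background on any array. Epicardial markers had 10 of 10 tested genes with positive differences, and a summed signal of 1275.4 to 2180.7 in superior against 816.2 to 1055.1 in inferior arrays. Cushion mesenchyme markers had 7 of 8 genes with negative differences, with sums of 5192.9 to 7452.3 against 5168 to 7030.3, and neural crest markers 3 of 4, with sums of 103.7 to 132.9 against 170 to 193.6 and with Foxd3 and Tfap2b not above background on any array. Endothelial markers had 5 of 7 positive differences with overlapping sums (1519.6 to 2050.8 against 1537.8 to 1884.2). Second heart field markers had 3 of 4 negative differences (791.2 to 1093.3 against 901.6 to 1491.7), pharyngeal endoderm markers 2 of 3 positive (628.4 to 785.6 against 575.1 to 858.4) and erythroid markers 3 of 4 positive (13792.6 to 22471.8 against 12409.6 to 15543.2, with Hba-a1 not above background on any array). The inferior array of pool 7 had the highest second heart field and endoderm sums, with Epcam at 67 against 14.2 to 27 on the others, and the superior array of pool 6 had the highest erythroid sum. The part of these cell types in the collagen values was not tested, and in bulk tissue fewer cells of a type and less RNA per cell cannot be told apart.

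The fibrils are described first. Col3a1, the chain of type III collagen that is common in extensible tissues, had signals of 3554.7, 4495.3 and 3915.9 in superior pools 1, 6 and 7 and of 3189.3, 3820.9 and 3309.9 in the inferior pools. The superior value was above the inferior one within each pool, while the regions overlapped across pools. The difference was 0.21 ± 0.09 (SE, n = 3 pools; adjusted p = 0.434), and the other Col3a1 probe set gave the same 0.21. Col1a2, the second kind of chain in type I collagen, had 1689.1, 2545.2 and 1613.7 in superior and 1221.3, 2410.3 and 1564.4 in inferior pools. Most of its difference of 0.20 ± 0.11 (adjusted p = 0.531) came from pool 1 (0.47), with 0.08 in pool 6 and 0.04 in pool 7, and its dimmest probe set had the opposite sign (-0.14). Col5a2, a chain of type V collagen, which helps to start fibrils, had 1237.5, 1691.6 and 1171.7 in superior against 1144.6, 1616.8 and 1048.6 in inferior pools, a difference of 0.11 ± 0.08 (adjusted p = 0.662). Its dimmer probe set gave 0.28, with -0.17 in pool 6.

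The size of these 3 positive differences depended on how the arrays were scaled. Under quantile normalization, which forces all arrays to 1 distribution, they shrank to 0.02 for Col3a1, 0.08 for Col1a2 and 0.03 for Col5a2, and none of the 3 kept its direction in every pool (Col3a1 was at -0.18 in pool 6). Under cyclic loess they were 0.07, 0.10 and 0.03, and Col3a1 kept its direction in every pool, though by only 0.002 in pool 6. Under 75th percentile scaling they were 0.25, 0.24 and 0.15, and all 3 kept theirs. The 5 negative fibrillar differences kept their sign under both.

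The other 5 fibrillar genes were lower in superior tissue in each pool, by small amounts. Col2a1, the main fibrillar chain of cartilage also made by cushion mesenchyme, had 620.7, 814.5 and 1358.6 in superior and 620.9, 1196.2 and 1698.2 in inferior pools. The regions were level in pool 1 and apart in pools 6 and 7 (-0.55 and -0.32), for a mean difference of -0.29 ± 0.11 (adjusted p = 0.418). Beside it, all 3 tested cartilage markers (Acan, Sox5 and Sox6, of 6 listed) had negative mean differences. None of them was called, where 0.160% of all tested probe sets were. Sox5 was negative in every pool, while Acan was at 0.05 in pool 1 and Sox6 at 0.30 in pool 7. The summed signals of the 6 markers were 232.1 to 272.1 in superior and 215 to 331.7 in inferior arrays, with Matn1 not above background on any array. Col1a1, the major chain of type I collagen, had 330.9, 420 and 310.4 against 349.4, 475.2 and 348.6, a difference of -0.14 ± 0.09 (adjusted p = 0.601), and its dimmer probe set gave -0.34. Col5a1, the partner of Col5a2, had 823.9, 963.5 and 626.1 against 957, 975.9 and 738.9 (-0.16 ± 0.09, adjusted p = 0.545). Its 3 tested probe sets ranged from -0.20 to -0.16. Col27a1, a fibrillar chain of cartilage, had 124, 137.3 and 116.6 against 133.1, 172.5 and 133.3 (-0.20 ± 0.11, adjusted p = 0.531). Col11a1, a minor chain inside cartilage fibrils that is also made in the heart, had a difference of -0.16 ± 0.10, and -0.43 ± 0.13 (adjusted p = 0.343) for its dimmer probe set. In their brightest probe sets all 8 fibrillar genes thus had 1 sign in the 3 pools, as 34.0% of all tested probe sets did. Col2a1 did so by only -0.0005 in pool 1. The count of 8 genes was 6 under 75th percentile scaling, 5 under quantile normalization and 6 under cyclic loess. Dimmer tested probe sets of Col27a1, Col1a2 and Col5a2 had mixed signs. Their pool values included 0.42 for Col27a1 in pool 7, -0.14 for Col1a2 in pool 7 and -0.17 for Col5a2 in pool 6.

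The region before the start of 4 of these genes is printed because they include fibrillar chains with differences of either sign, Col1a2 and Col3a1 positive and Col5a1 and Col11a1 negative. The sequences are from RefSeq on assembly GRCm38.p6, run 5′ to 3′ on the strand of the gene and end at the base before the gene's outermost annotated start. They lie at chr6:4505368-4505617 (Col1a2, plus strand), chr1:45311288-45311537 (Col3a1, plus), chr2:27886175-27886380 (Col5a1, plus) and chr3:114030290-114030478 (Col11a1, plus). Capitals mark 3 promoter motifs on either strand, the letters TATAAA of a TATA box, the letters CCAAT of a CCAAT box and the letters GGGCGG of a GC box, and no match overlapped another.
Col1a2: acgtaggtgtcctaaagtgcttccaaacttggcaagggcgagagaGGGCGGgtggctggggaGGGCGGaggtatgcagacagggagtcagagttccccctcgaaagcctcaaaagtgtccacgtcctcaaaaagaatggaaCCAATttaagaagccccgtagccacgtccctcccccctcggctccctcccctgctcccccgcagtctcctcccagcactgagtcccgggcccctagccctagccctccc
Col3a1: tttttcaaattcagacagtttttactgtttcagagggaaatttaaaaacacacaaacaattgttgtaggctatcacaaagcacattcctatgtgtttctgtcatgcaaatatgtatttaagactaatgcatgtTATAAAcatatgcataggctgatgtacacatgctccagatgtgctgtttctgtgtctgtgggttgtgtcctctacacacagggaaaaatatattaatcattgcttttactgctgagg
Col5a1: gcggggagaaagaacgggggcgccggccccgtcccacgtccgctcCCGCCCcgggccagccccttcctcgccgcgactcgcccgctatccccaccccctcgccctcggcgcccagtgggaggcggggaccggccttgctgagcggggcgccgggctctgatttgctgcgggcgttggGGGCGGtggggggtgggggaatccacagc
Col11a1: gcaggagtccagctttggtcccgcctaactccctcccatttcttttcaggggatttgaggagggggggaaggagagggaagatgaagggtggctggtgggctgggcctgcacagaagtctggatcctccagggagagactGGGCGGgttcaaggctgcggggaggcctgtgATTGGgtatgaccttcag
Col3a1 held a TATAAA and neither of the other motifs, whereas the other 3 held GGGCGG and no TATAAA. Of the 42 genes, 33 matched the RefSeq promoter table, with 36 windows of 250 bases before a start. Among these windows 5 held TATAAA (12.4% of all 32851 promoter windows did), 13 held CCAAT (33.8%) and 21 held GGGCGG (32.7%). A match of letters is a description of the window and shows no factor bound there.

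**Figure D2:**
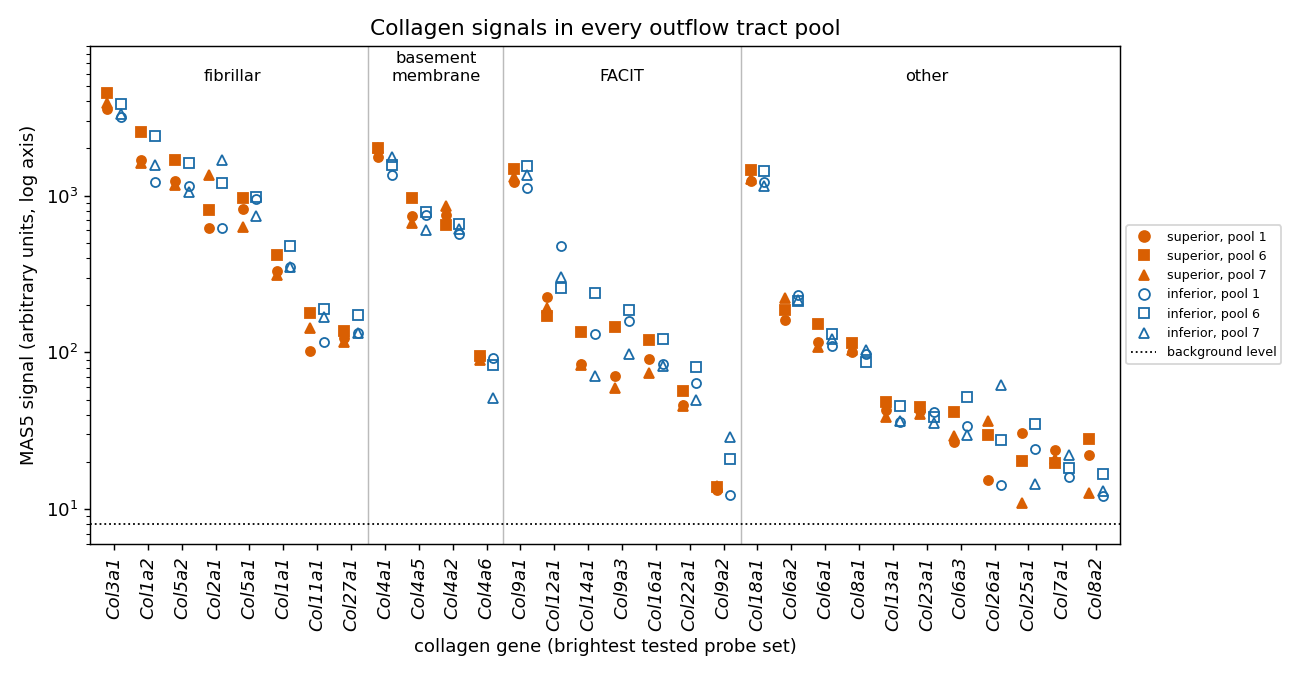
MAS5 signal (vertical log axis, arbitrary units) of the brightest tested probe set of each of the 30 collagen genes on all 6 arrays, filled for superior and open for inferior, with 1 symbol shape per pool. The dotted line is the background level of 8.0. Regions overlapped for 28 genes and did not for Col12a1 and Col4a1, where 9.21% of all tested probe sets did not overlap. Brightness does not rank different genes.

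All 4 tested type IV genes had a positive mean difference. In their brightest probe sets 2 of them, Col4a1 and Col4a6, were positive in every pool. Col4a1 and Col4a2 encode the chains found together in nearly all basement membranes. Col4a1 had signals of 1770.2, 2000 and 2011.3 in superior and of 1346.6, 1560.5 and 1753 in inferior pools. All 3 superior values lay above all 3 inferior ones, which was so in either direction for 9.21% of all tested probe sets and for 2 of the 30 collagen genes. The difference was 0.32 ± 0.09 (SE; 95% interval 0.12 to 0.52; adjusted p = 0.298), with 0.39, 0.36 and 0.20 in pools 1, 6 and 7, and was 0.18 for the dimmer Col4a1 probe set. Col4a2 had 752.9, 651.4 and 853.1 in superior and 572.2, 657.7 and 610.9 in inferior pools. Its regions were level in pool 6 (-0.01) and apart in pools 1 and 7 (0.39 and 0.48), for a mean of 0.29 ± 0.11 (95% interval 0.03 to 0.54; adjusted p = 0.418). Under quantile normalization the differences were 0.22 for Col4a1 and 0.27 for Col4a2.

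Col4a5 and Col4a6 encode chains of more specialised basement membranes. Col4a5 had 742.8, 962.1 and 664.1 in superior against 748.3, 790.7 and 600.2 in inferior pools, a difference of 0.14 ± 0.09 (adjusted p = 0.617) that was near 0 in pool 1 (-0.01). Its dimmer probe set gave 0.13, with -0.15 in pool 6. Col4a6 had 93.3, 94.4 and 89 against 92.2, 83 and 51. Its difference of 0.32 ± 0.16 (adjusted p = 0.506) rested on the low inferior value of pool 7 and was 0.10 without that pool. The dimmer Col4a6 probe set gave 0.15 ± 0.22, with a reversed sign in pool 6 (-0.49). Without pool 7 the median over the 4 genes was 0.16 in place of 0.30. The remaining pair, Col4a3 and Col4a4, of kidney and lung basement membranes, had 5 probe sets and no signal above background on any array.

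The type IV genes lie in pairs that start next to each other and run in opposite directions. On assembly GRCm38.p6, Col4a1 spans chr8:11198423-11312889 on the minus strand and Col4a2 spans chr8:11312805-11449287 on the plus strand, so that their annotated ends overlap by 85 bases. Col4a6 (chrX:141165403-141474095, minus) and Col4a5 (chrX:141475370-141689236, plus) are 1274 bases apart. The stretches just before these 2 starts are printed as the non-transcribed part of a pair whose members had the same sign, from RefSeq, on the strand of each gene and with the same use of capitals. They are chrX:141475169-141475369 for Col4a5 and chrX:141474096-141474326 for Col4a6.
Col4a5: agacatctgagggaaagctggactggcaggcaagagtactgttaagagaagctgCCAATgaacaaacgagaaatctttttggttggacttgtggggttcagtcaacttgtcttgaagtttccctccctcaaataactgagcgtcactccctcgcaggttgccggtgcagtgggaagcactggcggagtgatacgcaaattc
Col4a6: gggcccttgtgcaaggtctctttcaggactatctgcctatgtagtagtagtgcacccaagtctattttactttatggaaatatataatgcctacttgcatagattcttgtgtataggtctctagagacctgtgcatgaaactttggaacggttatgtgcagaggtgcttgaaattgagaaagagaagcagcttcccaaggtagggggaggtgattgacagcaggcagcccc
The Col4a5 stretch held a CCAAT, and the Col4a6 stretch held none of the 3 motifs. These stretches are 201 and 231 bases long, and the full windows of 250 bases of both genes also held GGGCGG, in a part that is not printed.

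Genes for other parts of the basement membrane did not share the sign of type IV collagen. Of 9 listed partners, all tested, 4 had positive and 5 negative differences, with a median of -0.002, and 0 were called in the paired limma fit (1 had an unadjusted p under 0.05, against 11.0% of all tested probe sets). The largest were 0.08 ± 0.08 for the laminin chain gene Lamb1 and -0.21 ± 0.09 for Hspg2, which encodes perlecan, the heparan sulfate proteoglycan of basement membranes (adjusted p = 0.761 and 0.446).

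**Figure D3:**
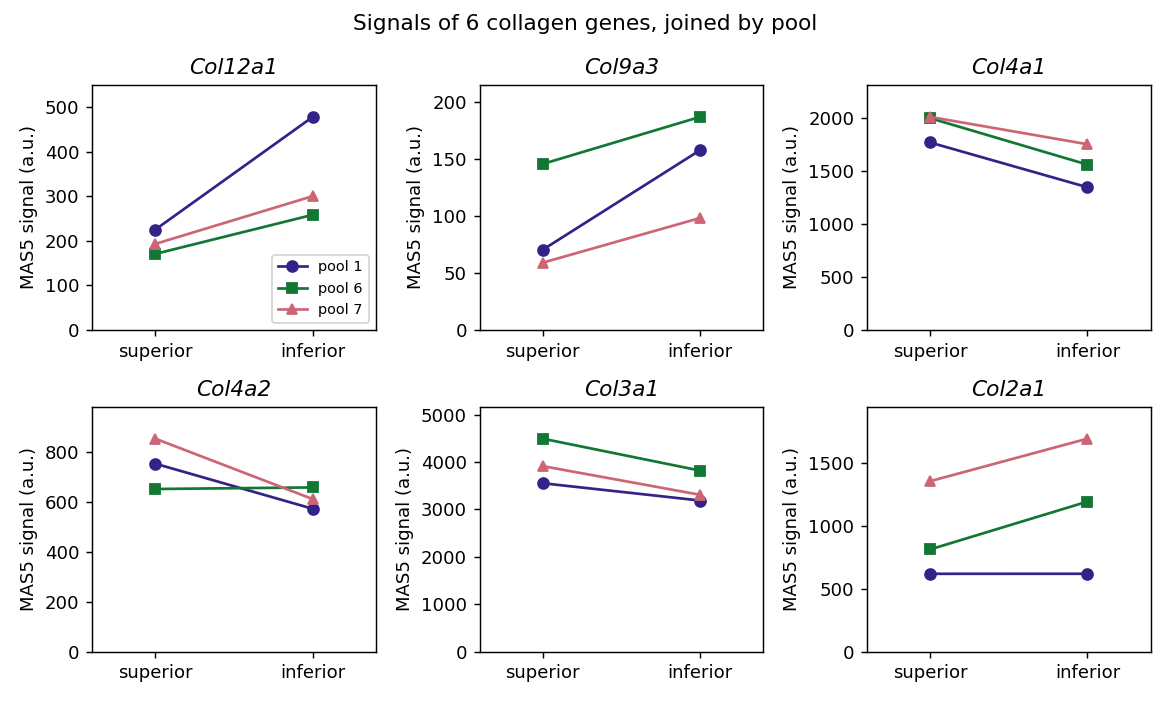
MAS5 signal (vertical axis from 0, arbitrary units) of 6 collagen genes in superior and inferior tissue, with a line joining the 2 arrays of each pool. Col12a1 and Col9a3 were higher in inferior tissue in each pool, and Col4a1 and Col3a1 in superior tissue. Col2a1, Col9a3 and Col3a1 differed more between pools than between regions, as 83.3% of all tested probe sets did.

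The largest differences among collagens were in FACIT genes. Col12a1, whose product coats type I fibrils in tissues under load, had signals of 225.3, 170.8 and 193.2 in superior and of 478.8, 258.7 and 300.7 in inferior pools. All superior values lay below all inferior ones, and the inferior value of pool 1 stood highest. The inferior level was 1.70 times the superior one on this scale, with a difference of -0.77 ± 0.12 (SE; 95% interval -1.04 to -0.49; adjusted p = 0.0707), and another tested Col12a1 probe set, with a mean signal near 30.1, gave -0.31 ± 0.19 (adjusted p = 0.574). It was called without pool 6 (adjusted p = 0.0171) or pool 7 (adjusted p = 0.0118), and not without pool 1, where the difference was -0.61 (adjusted p = 0.564). These fits rest on 1 residual degree of freedom and are no stronger evidence than the fit of all pools. Of all 22518 tested probe sets, 231 were called without pool 6 and 116 without pool 7, against 36 with all pools.

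Col9a3, a chain of type IX collagen, had 70.3, 145.7 and 59 in superior and 157.9, 187.1 and 98.3 in inferior pools. It was lower in superior tissue in each pool, most so in pool 1 (-1.13, against -0.35 and -0.71 in pools 6 and 7), while the regions overlapped across pools. The mean was -0.73 ± 0.15 (95% interval -1.08 to -0.38; adjusted p = 0.165), an inferior level 1.66 times the superior one, and the other tested probe set gave -0.95 ± 0.22 (adjusted p = 0.215). Without pool 6 both Col9a3 probe sets were called (0.0264 for the brighter), and without pool 1 the brighter stood at -0.53 (adjusted p = 0.958). Of the chains that join it in type IX collagen, Col9a1 was level and Col9a2 had the same sign. Col9a1 had 1214, 1476.9 and 1305.5 in superior against 1113.4, 1549 and 1358 in inferior pools, with a difference of -0.00030 ± 0.088 and a 95% interval of -0.20 to 0.20 that leaves out differences as large as that of Col9a3. Its sign turned under 75th percentile scaling and without pool 6 or pool 7. Col9a2, close to the limit of testing, had 13.3, 13.8 and 14.1 against 12.4, 20.9 and 29, a difference of -0.44 ± 0.24 (95% interval -0.99 to 0.11, which holds the value of Col9a3; adjusted p = 0.538). It was -0.21 without pool 7, whose inferior array was the highest. The difference between the type IX chains was not itself tested.

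Col14a1, a FACIT of fibril-rich connective tissue, had 84.3, 135.7 and 82.6 in superior and 130.7, 237.5 and 70.9 in inferior pools. In this brightest probe set the direction changed between pools, with -0.61 and -0.79 in pools 1 and 6 and 0.21 in pool 7. The mean was -0.40 ± 0.19 (adjusted p = 0.477). Without pool 7 it was -0.70 (adjusted p = 0.0400) and without pool 6 it was -0.20. The dimmer tested Col14a1 probe set was negative in each pool (-0.01, -1.14 and -0.39 in pools 1, 6 and 7). Its mean was -0.51 ± 0.23 (adjusted p = 0.458). Col22a1, a FACIT of tissue junctions such as that of muscle and tendon, had -0.35 ± 0.14 (adjusted p = 0.433), lower in each pool, although the dimmest of its 3 tested probe sets gave 0.12. Col16a1 was level (-0.01 ± 0.12, 95% interval -0.29 to 0.26), and its sign turned under each of the 3 scalings tried.

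Of the remaining types, 11 genes were tested, 7 with positive and 4 with negative differences (median 0.07). In the paired limma fit 0 of them had an unadjusted p under 0.05, where 11.0% of all tested probe sets did. Col18a1, a multiplexin of basement membrane zones and the source of endostatin, had 1241, 1450.7 and 1284.6 in superior against 1222.3, 1429.7 and 1153.3 in inferior pools. Its difference was 0.07 ± 0.08 with a 95% interval of -0.13 to 0.26, and it was -0.01 under cyclic loess. Type VI collagen makes beaded filaments next to cells, and its chains had differences of 0.05 ± 0.12 for Col6a1, -0.21 ± 0.12 for Col6a2 and -0.21 ± 0.16 for Col6a3. Col6a2 had 161.5, 186.5 and 223.2 against 231.5, 211.5 and 215.5, apart in pool 1 (-0.51) and level in pool 7 (0.05). Col6a1 had 117.2, 152.2 and 108 against 109.5, 131.1 and 121.7, and its sign turned without pool 6 (-0.04). Col6a3 had 27, 41.4 and 29.2 against 33.8, 51.8 and 29.7.

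The short-chain collagens Col8a1 and Col8a2 form networks under endothelium, and Col7a1 anchors the skin's basement membrane. Col8a2 had the largest positive difference of all 30 genes, 0.45 ± 0.23 (95% interval -0.07 to 0.98; adjusted p = 0.509), from dim signals of 22.3, 28.1 and 12.6 in superior and 12.1, 16.7 and 13 in inferior pools. It was 0.74 and 0.65 in pools 1 and 6 and -0.04 in pool 7. Col8a1 had 100.2, 114.4 and 103.9 against 97.9, 86.3 and 103.1 (0.15 ± 0.13), and Col7a1 had 23.7, 19.8 and 20.8 against 16, 18.3 and 22.2 (0.17 ± 0.20). The transmembrane collagens Col13a1 and Col23a1 had 0.13 ± 0.15 each. Col13a1 had 42.7, 48.4 and 38.9 in superior and 36, 45.7 and 36.4 in inferior pools. Col23a1 had 42.1, 44.6 and 40.7 against 41.6, 38.7 and 35.5. Col25a1, a membrane collagen of neurons and muscle, had 30.7, 20.2 and 11 against 24.1, 35.1 and 14.4 (-0.24 ± 0.23). Col26a1 had 15.4, 29.9 and 36.4 against 14.2, 27.6 and 62.3 (-0.18 ± 0.21). The differences of both had mixed signs over the pools, and that of Col26a1 was 0.10 without pool 7. The inferior array of that pool had the highest endoderm marker sum, 858.4 against 575.1 to 785.6 on the others. Whether this bears on Col26a1 was not tested.

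Chains of a shared molecule could be set side by side within pools. For type IV both partners were positive, at 0.32 and 0.29. For type I the brightest probe sets of the partners had opposite signs, -0.14 for Col1a1 and 0.20 for Col1a2, in all 3 pools. For type V they were also opposite in all 3 pools, -0.16 for Col5a1 and 0.11 for Col5a2. The next brightest probe sets did not stay positive in every pool, with Col1a2 at -0.14 in pool 7 and Col5a2 at -0.17 in pool 6. Col1a2 and Col5a2 lost their constant sign under quantile normalization and cyclic loess, so that the opposite directions within types I and V did not hold in every pool there. Under 75th percentile scaling Col5a1 lost its constant sign, and the type I chains stayed opposite in every pool. For types VI and IX the chains ranged from -0.21 to 0.05 and from -0.73 to about 0.

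The pools were also compared with each other. The means of the 3 pools spanned a median range of 0.47 on the log2 scale over the 30 genes, where the median size of the region difference was 0.20, and over all tested probe sets these medians were 0.34 and 0.12. The pool range was the larger of the 2 for 83.3% of all tested probe sets and for 23 of the 30 collagen genes, which is no result about collagens. The widest ranges were 1.50 for Col26a1, 1.29 for Col2a1 (2.44-fold), 1.20 for Col14a1 and 1.08 for Col9a3. Col2a1 was lowest in pool 1 and highest in pool 7 in both regions, and Col26a1 followed the same order. Pool 6 was the highest of the 3 pools for 18 of the 30 genes, while it was the highest for 27.9% of all tested probe sets. The superior array of that pool is the one with the brighter hybridisation controls, and whether this bears on the count was not tested.

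**Figure D4:**
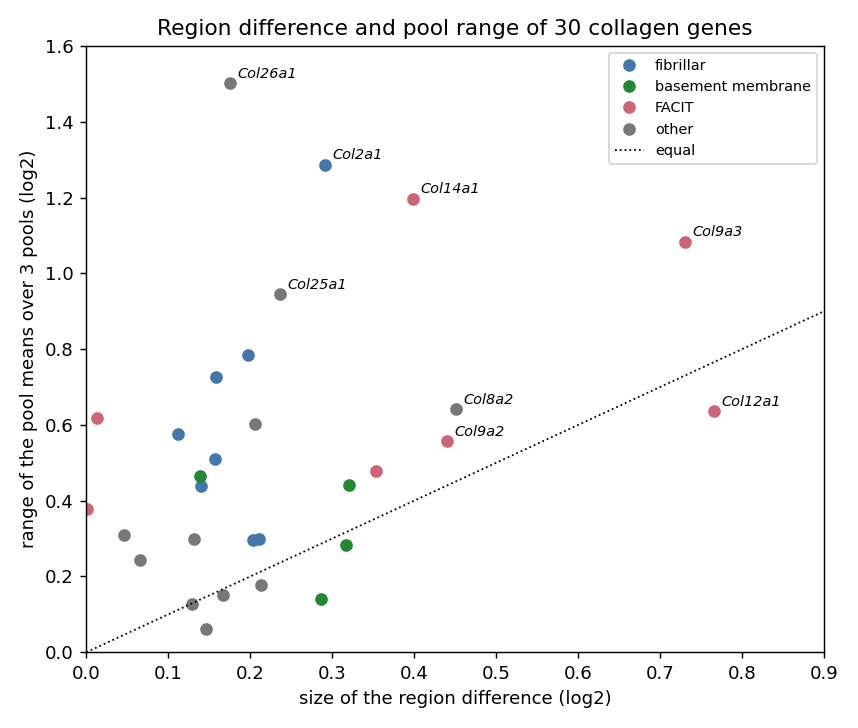
Range of the 3 pool means (vertical axis, log2) against the size of the region difference (horizontal axis, log2) for the 30 tested collagen genes, coloured by class, with a dotted line where they are equal. Col26a1 and Col2a1 have the widest pool ranges, 1.50 and 1.29, while Col4a2 and Col12a1 lie farthest below the line.

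The enzymes that make collagen and the receptors that bind it showed no called member. Collagen is hydroxylated and folded in the endoplasmic reticulum, and of 17 tested genes for these steps 6 had positive and 11 negative differences (median -0.07), with 0 called in the paired limma fit (0.160% of all tested probe sets were) and 3 below an unadjusted p of 0.05 (11.0%). Ppib, a folding isomerase, had the largest positive one (0.14 ± 0.09) and Tmem38b, an ion channel of the endoplasmic reticulum, the largest negative one (-0.38 ± 0.11, adjusted p = 0.336), and the chaperone Serpinh1 had 0.10 ± 0.09. After secretion, propeptides are cut and fibrils crosslinked. Of 7 tested genes for this step 2 had positive and 5 negative differences (median -0.06), with 0 called and 3 below an unadjusted p of 0.05, beside the same shares of 0.160% and 11.0%. Loxl1, a crosslinking oxidase, stood at 0.38 ± 0.09 (adjusted p = 0.234) with 0.48, 0.33 and 0.33 in pools 1, 6 and 7, and Pcolce2, an enhancer of propeptide removal, at -0.35 ± 0.13 (adjusted p = 0.413). Of 5 tested collagen receptors, 2 had positive and 3 negative differences (median -0.12). Here 0 were called and 0 lay below an unadjusted p of 0.05, again beside shares of 0.160% and 11.0% of all tested probe sets. Their extremes were the integrin gene Itgb1 (0.07 ± 0.10) and Mrc2, an endocytic collagen receptor (-0.31 ± 0.16, adjusted p = 0.507).

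Of the 42 collagen genes, 12 had no tested probe set. For 7 of them, Col10a1, Col17a1, Col24a1, Col4a3, Col4a4, Col6a4 and Col6a5, no probe set was above background on any array, which sets no limit on their RNA because probe sets differ in sensitivity. Col5a3, Col11a2, Col19a1 and Col20a1 had a most often detected probe set that was above background on 1 to 4 arrays. Col15a1, a multiplexin of basement membrane zones, lay just below the limit of testing, with 10.5, 28.6 and 20.3 in superior and 13.1, 9.1 and 10.9 in inferior pools, and Col9a2 lay just above it. Of 19 genes with several tested probe sets, 16 had the same sign in all of them, and Col1a2, Col22a1 and Col23a1 did not.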

How the data were processed

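Superior and inferior outflow tract pools were measured on 6 single-channel arrays. The authors deposited linear intensity signals made with the MAS5 algorithm (named in the submitters' processing notes, its version not given in the sources used here). In the deposited values, each array's mean after trimming 2% at either end was 100. Of 45037 probe sets other than the 64 controls, the platform annotation named 1 gene for 34945, several for 932 and none for 9160 here. All 82 collagen probe sets matched a RefSeq gene (GRCm38.p6) by gene ID, which changed 0 symbols.

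Signals became log2(signal + 3.2), the offset being the 25th percentile of signals. Probe sets with a mean above the median (signal about 15.1) were tested with limma 3.58.1 in R 4.3.3 (lmFit, eBayes with trend and robust variance) and called at an adjusted p threshold of 0.05. The pool number was a block, which leaves 2 residual degrees of freedom, because the members were to be compared within pools and the labels give both regions the same pool numbers. The deviations of same-numbered arrays from their region means correlated at 0.79, 0.43 and 0.51 for pools 1, 6 and 7. Those of unlike numbers ranged from -0.54 to 0.20. The code was tested on simulated data. Intervals of 95% come from the same fit, and the arrays' number limits the precision.

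Collagens were classed as fibrillar, basement membrane, FACIT or other. All arrays' values are given for the genes with the brightest probe sets or largest differences of each class (the other types taken separately), for any gene called and for chains that assemble together. The members and lists were chosen with earlier results of these data known. Alternatives were another offset, filter, scaling and variance model, no pool block, the mean over probe sets and leaving out each pool.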

Additional observations from a re-analysis of the deposited data

How the results depend on the processing

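No collagen probe set was called in any setting that kept all 3 pools. Few probe sets of any kind were. Over all tested probe sets, 0 were called with no replicate block for the pool number and 0 without trend and robust variance. With no filter 1 of 45037 was called, and in the top 25 percent by signal 2 of 11259. The other settings with all pools called 22 to 38 of 22518. The limma fit with no replicate block moved the adjusted p of Col12a1 from 0.0707 to 0.9999. The smallest adjusted p of any probe set in that fit was 0.755. Leaving out a pool gave 0 to 3 called probe sets, 3 without pool 6 (Col12a1 and both of Col9a3) and 2 without pool 7 (Col12a1 and Col14a1). Over all 22518 tested probe sets, 231 were called without pool 6, 116 without pool 7 and 9 without pool 1, against 36 with all pools. The median of the type IV genes, 0.30, was 0.16 to 0.34 when a pool was left out and 0.21 with no filter on dim probe sets, where Col4a3 and Col4a4 enter. The other class medians moved by less than the spread over pools. The sign of 24 of the 30 genes was the same in every setting in which they were tested. Signs turned for Col9a1 (0.039 under 75th percentile scaling, and -0.063 to 0.034 when a pool was left out), Col16a1 (0.025 under 75th percentile scaling, 0.028 under quantile normalization, 0.033 under cyclic loess, and -0.077 to 0.044 when a pool was left out), Col18a1 (-0.012 under cyclic loess), Col6a1 (-0.036 without pool 6 to 0.15 without pool 7), Col25a1 (-0.51 without pool 1 to 0.0013 without pool 6) and Col26a1 (-0.31 without pool 6 to 0.10 without pool 7). The cause was not tested. Among genes with the same direction in all 3 pools, 75th percentile scaling gave 12 higher and 6 lower, quantile normalization 7 and 8, and cyclic loess 8 and 8, against 9 and 9. Dim probe sets near the background of 8.0 limit what can be said of Col9a2, Col8a2, Col7a1 and Col25a1.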
